A study of Rattus norvegicus with 4 samples.

Results

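The genes described here are 10 secreted signals of inflammation: the CC chemokines Ccl2, Ccl3, Ccl4 and Ccl7, the CXC chemokines Cxcl1 and Cxcl12, the membrane-bound chemokine Cx3cl1, and the cytokines Tnf, Il1b and Il6. They were chosen by name from 16562 genes that had a named probe on the array, with earlier results of these data known. All 10 had a probe. They were measured in cultured rat oligodendrocyte precursor cells (OPCs), the glial precursors that mature into the myelin-forming oligodendrocytes of the brain, on 4 one-colour Agilent SurePrint rat arrays. OPCs were obtained from pooled cortices of Sprague–Dawley rats at postnatal day 2, were expanded for 3 days with bFGF and PDGF, and were then moved to medium with triiodothyronine, which starts their maturation. In 2 samples (siGPR17) the cells received 50 nM of a pool of small interfering RNAs against Gpr17, a G protein-coupled receptor of maturing OPCs, and in 2 samples (siNEG) the same amount of a non-targeting pool. All 4 samples carried the same transfection reagent and were lysed 48 h later, at day 2 in vitro. The comparison asked how silencing of Gpr17 altered the transcripts of these cells.

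Chemokines are small secreted proteins that draw leukocytes along a gradient through G protein-coupled receptors, and tumor necrosis factor, interleukin-1β and interleukin-6 are the classical early cytokines of inflammation. Transcription of most of these genes is low in resting cells and is raised through NF-kB when Toll-like or cytokine receptors are engaged. In the brain microglia and astrocytes are their best-known sources, while Cxcl12 and Cx3cl1 are also made in the healthy tissue, Cxcl12 as a guidance signal for migrating precursors and Cx3cl1 by neurons as a signal to microglia.

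Ccl2 and Cxcl1 had lower signals in both siGPR17 samples than in either siNEG sample. The difference was 3.38-fold for Ccl2 (with 1 siGPR17 array at background) and, by an estimate explained below, 2.61-fold for Cxcl1 (with both at background). Cx3cl1, by far the brightest of the 10, was 1.44-fold lower. Cxcl12 was the exception and was 1.51-fold higher after silencing. Ccl7 and Tnf were measurable on a single siNEG array, and Ccl3, Ccl4, Il1b and Il6 were not well above background on any array. None of these differences passed the thresholds of the study (fold change of 1.5 and adjusted p below 0.07) in limma with Benjamini-Hochberg adjustment over all tested probes, and neither did any other gene (0.0% of 11652 tested genes), although 1884 genes had an unadjusted p below 0.05 and 1 probe without a symbol did pass. The methods' t-test, which uses the spread of each gene alone, also called 0 genes, and an exact permutation of 2 against 2 arrays gives a two-sided p of 0.333 at best. The study itself did obtain a list of differentially expressed genes at the same thresholds, with an array test that its methods do not name.

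**Figure D1:**
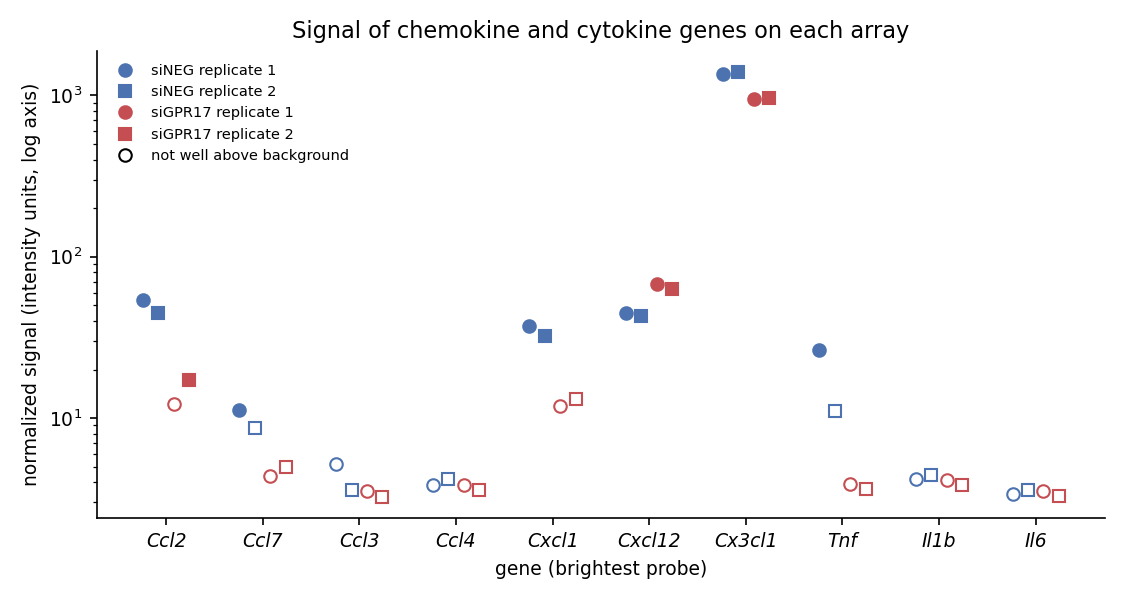
Normalized signal (intensity units, logarithmic vertical axis) of the brightest probe of each gene on the 2 siNEG arrays (blue) and the 2 siGPR17 arrays (red), with circles for replicate 1 and squares for replicate 2. Open symbols mark arrays on which the probe was not well above background, as for Ccl3, Ccl4, Il1b and Il6 on all 4 arrays, while Cx3cl1 lies near 1364 and 1397 in siNEG and near 945 and 969 in siGPR17.

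Signals are given as normalized intensity, that is, the processed spot intensity after each array was scaled to its own 75th percentile. The arrays resembled each other closely (r between 0.992 and 0.996 over the tested probes), between 26997 and 28244 of 45598 probes were well above background, and no spot was saturated. The targeted transcript was checked first. Gpr17 had signals of 1107 and 1113 in siNEG and of 652.3 and 639.4 in siGPR17. It was thus lower on both siGPR17 arrays, and the gap between groups was far wider than that between replicates (log2 fold change -0.78, SE 0.085, limma with Benjamini-Hochberg adjusted p = 0.209). All arrays lay on 1 slide, but the siNEG arrays shared a column of it and the siGPR17 arrays another, so that column and treatment cannot be told apart. Nothing in the labels says whether the 2 samples of a group came from separate cultures, and p-values measure only the spread between these samples.

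Promoter sequences are shown for 3 of the genes, because the group is best known for a shared NF-kB control and because their signals went different ways: Cxcl1 was lower after silencing, Cxcl12 was higher, and Il6 stayed at background. Each is the 300 bases from 250 before to 50 after the transcription start in RefSeq (build GRCr8), 5′ to 3′ on the strand of the gene, with every match to the NF-kB-type pattern GGGNNNNNCC on either strand in capitals. They are from chr14:17479272-17479571 (minus strand), chr4:5894526-5894825 (minus strand) and chr4:152060531-152060830 (plus strand), respectively.
Cxcl1: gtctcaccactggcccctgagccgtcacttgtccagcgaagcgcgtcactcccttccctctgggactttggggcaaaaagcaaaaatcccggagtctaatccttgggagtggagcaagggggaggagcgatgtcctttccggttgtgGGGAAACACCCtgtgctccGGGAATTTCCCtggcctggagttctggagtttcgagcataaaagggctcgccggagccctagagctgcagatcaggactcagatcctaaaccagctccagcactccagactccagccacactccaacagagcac
Il6: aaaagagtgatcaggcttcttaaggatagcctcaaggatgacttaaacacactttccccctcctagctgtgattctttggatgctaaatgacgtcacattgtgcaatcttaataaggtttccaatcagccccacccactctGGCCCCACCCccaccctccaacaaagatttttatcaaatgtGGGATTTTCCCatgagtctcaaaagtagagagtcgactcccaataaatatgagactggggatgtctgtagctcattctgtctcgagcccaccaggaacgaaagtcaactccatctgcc
Cxcl12: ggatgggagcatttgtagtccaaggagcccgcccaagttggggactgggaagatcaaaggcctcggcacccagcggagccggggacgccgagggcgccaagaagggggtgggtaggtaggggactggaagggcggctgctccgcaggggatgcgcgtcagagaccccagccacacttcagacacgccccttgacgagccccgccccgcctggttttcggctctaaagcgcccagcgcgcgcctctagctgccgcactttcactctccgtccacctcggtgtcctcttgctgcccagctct
In Cxcl1 the capitals are 2 stretches that each hold a pair of overlapping matches, the first of them starting 103 and 84 bases before the transcription start. In Il6 they start 109 and 68 bases before it, and the second stretch again holds a pair. The Cxcl12 window holds no match. Promoters of 7 of the 10 genes were matched in the table (Ccl7, Cx3cl1, Cxcl1, Cxcl12, Il1b, Il6 and Tnf), and 4 of the 7 (Ccl7, Cxcl1, Il6 and Tnf) held the pattern, against 47.3% of all 33469 promoters of that length, so that the pattern is common. The AP-1-type pattern TGANTCA occurred in 1 of the 7 (Ccl7) and in 7.33% of all, and the TATA-type pattern TATAAA in 4 of the 7 (Ccl7, Cx3cl1, Il1b and Tnf) and in 14.2% of all. Among these 7, genes with the NF-kB-type pattern thus included Cxcl1, which was lower after silencing, as well as Il6, which was not detected. A match describes letters only and is no evidence of binding.

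Ccl2 (NM_031530) encodes monocyte chemoattractant protein-1, the main ligand of the receptor Ccr2 and the signal that draws monocytes to sites of injury. Its probe, A_42_P695401, was printed at 10 positions of each array. The normalized signal was 54.3 and 44.5 on the siNEG arrays and 12.2 and 17.3 on the siGPR17 arrays. Both siGPR17 arrays were therefore lower, and the nearest arrays of the 2 groups were further apart than the replicates of either. The mean was 49.4 ± 6.89 in siNEG and 14.7 ± 3.63 in siGPR17 (SD, n = 2), a log2 fold change of -1.76 (SE 0.22, limma with Benjamini-Hochberg adjusted p = 0.209). In siGPR17 the transcript sat at the edge of detection. It was well above background at 0 of 10 spots on the first siGPR17 array and 5 of 10 on the other, but at all 10 and all 9 usable spots of the siNEG arrays. Even so the spots of the groups did not meet, since the dimmest siNEG spot had a signal of 36.2 and the brightest siGPR17 spot 26.2. The fold change includes the siGPR17 array that did not measure the transcript.

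Cxcl1 (NM_030845), known as growth-related oncogene and a ligand of the neutrophil receptor Cxcr2, was also printed 10 times (A_42_P473398). It had signals of 37.1 and 32.3 in siNEG and of 11.9 and 13.1 in siGPR17. The 2 groups were again separate, and the replicates of each lay close together. The log2 fold change was -1.47 (SE 0.12, limma with Benjamini-Hochberg adjusted p = 0.209), which includes siGPR17 signals at background. All 20 siNEG spots but only 2 of 20 siGPR17 spots were well above background. By the array-level criterion, at least 50% of a probe's spots, neither siGPR17 array measured the transcript. When each dim array entered with the higher of its own signal and its dimmest signal well above background, the transcript was 2.61-fold lower. The second siGPR17 array entered with its own background signal (13.1), so this value is no strict lower bound. At the level of spots there was a small overlap, since 1 siGPR17 spot reached 25.3 while the dimmest siNEG spot was at 24.8. Cxcl1 entered the test through the siNEG arrays alone, where it was the brighter, and a gene this dim in siGPR17 could be tested only if it was brighter in siNEG.

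Background correction had a large influence on these 2 dim probes. When normexp with an offset of 50 was used on the uncorrected spot intensities in place of the processed ones, the log2 fold change of Ccl2 became -0.43 (limma with Benjamini-Hochberg adjusted p = 0.0858) and that of Cxcl1 -0.30. The offset is larger than most of their signals and shrinks their ratios by construction. Allowing the prior spread in limma to follow signal level (trend and robust options) gave adjusted p-values of 0.0397 for Ccl2 and 0.0645 for Cxcl1 with unchanged fold changes, so that both then passed the thresholds. Both stayed lower in siGPR17 in every one of the 14 alternative settings that kept them. For Cxcl1 this is no further evidence, since the filter had fixed its direction and nearly all settings used the same tested probes. For Ccl2 the filter favoured the lower direction.

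**Figure D2:**
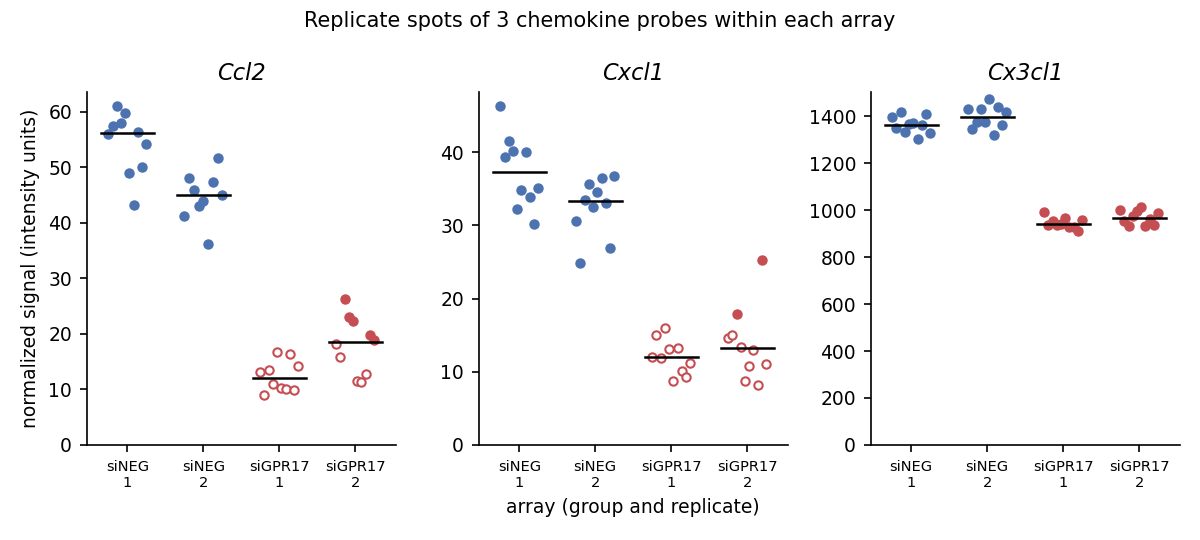
Normalized signal (intensity units, linear vertical axes from 0) of every usable spot of the Ccl2, Cxcl1 and Cx3cl1 probes on each array, with siNEG in blue and siGPR17 in red, open circles for spots not well above background and a black line at the median of the array. For Ccl2 and Cx3cl1 no siGPR17 spot reaches the dimmest siNEG spot (36.2 and 1303), and for Cxcl1 a single siGPR17 spot at 25.3 does.

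Cx3cl1 (NM_134455) encodes fractalkine, a chemokine held at the cell surface by a mucin stalk and shed by the metalloproteases Adam10 and Adam17, whose receptor Cx3cr1 in brain is carried by microglia. It was the only gene of the 10 with a signal above the median of the tested genes (percentile 57.1 of level, a rank of probes and not a comparison of molecule numbers). The signal was 1364 and 1397 in siNEG and 944.6 and 969.0 in siGPR17, with all 40 spots well above background. Replicates differed by a few percent, and the groups were widely apart, as the dimmest siNEG spot (1303) was brighter than the brightest siGPR17 spot (1015). The log2 fold change was -0.53 (SE 0.086, limma with Benjamini-Hochberg adjusted p = 0.209). A change of this size is below the fold change of 1.5, and it remained so under each alternative, including normexp and the trend and robust options, in which the adjusted p was 0.0468 and 0.0297. Scaling to the spike-in controls moved the log2 fold change of every probe, and so their median, up by 0.13 and gave Cx3cl1 a log2 fold change of -0.40, still lower in siGPR17.

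Cxcl12, stromal cell-derived factor 1, signals through Cxcr4 and is taken up by the scavenging receptor Ackr3, and it guides OPCs in the developing brain. It had 3 probes. On the brightest, A_44_P337351 (NM_001033883), the signal was 44.7 and 42.6 in siNEG and 68.1 and 63.5 in siGPR17. Both siGPR17 arrays were higher, and the replicates of each group lay within a narrow range. The log2 fold change was 0.59 (SE 0.094, limma with Benjamini-Hochberg adjusted p = 0.209), which is at the edge of the fold change of 1.5. A further probe of the same transcript, A_44_P1156527, gave 10.3 and 8.45 in siNEG, where it was not well above background, and 21.5 and 29.5 in siGPR17. With dim arrays treated as for Cxcl1, this probe was 2.65-fold higher after silencing (fitted log2 fold change 1.43, SE 0.20). That value includes a siNEG signal at background (10.3) and is no strict lower bound. The fitted change was larger than that of the brightest probe. Like Cxcl1, this probe passed the filter only through the group in which it was bright. The probe for another transcript, A_64_P135474 (NM_022177), stayed at background on all arrays (5.96 and 4.15 in siNEG, with a log2 difference of 0.77 to siGPR17) and was not tested. Over the settings tried, the log2 fold change of Cxcl12 ranged from 0.35 with normexp to 1.01 when the tested probes were averaged.

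The CC chemokine Ccl7, monocyte chemoattractant protein-3, is a relative of Ccl2 that shares the receptor Ccr2. It had signals of 11.2 and 8.63 in siNEG and of 4.41 and 4.97 in siGPR17 (A_44_P1022002, NM_001007612). The order was that of Ccl2, but the probe was well above background on 1 siNEG array only, at 1 of its 2 spots, so it was not tested. With dim arrays treated as for Cxcl1, no fold difference above 1 was left.

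Tnf, tumor necrosis factor, is released from the cell surface by Adam17. It had 2 probes for the same transcript (NM_012675), which gave different pictures. On A_64_P034414 the signal was 26.6 and 11.0 in siNEG and 3.92 and 3.62 in siGPR17, with the first siNEG array alone well above background. On A_43_P11513 it was 3.64 and 3.94 in siNEG and 3.68 and 3.41 in siGPR17, at background on all arrays. With dim siGPR17 arrays treated as for Cxcl1, the brighter probe was 1.72-fold lower after silencing. That value is no lower bound, since it averages in the siNEG array that was not well above background (11.0). The members of this siNEG pair differed more from each other than is seen for any tested gene of the 10. The brighter probe was not tested, and the dimmer probe did not show the difference.

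**Figure D3:**
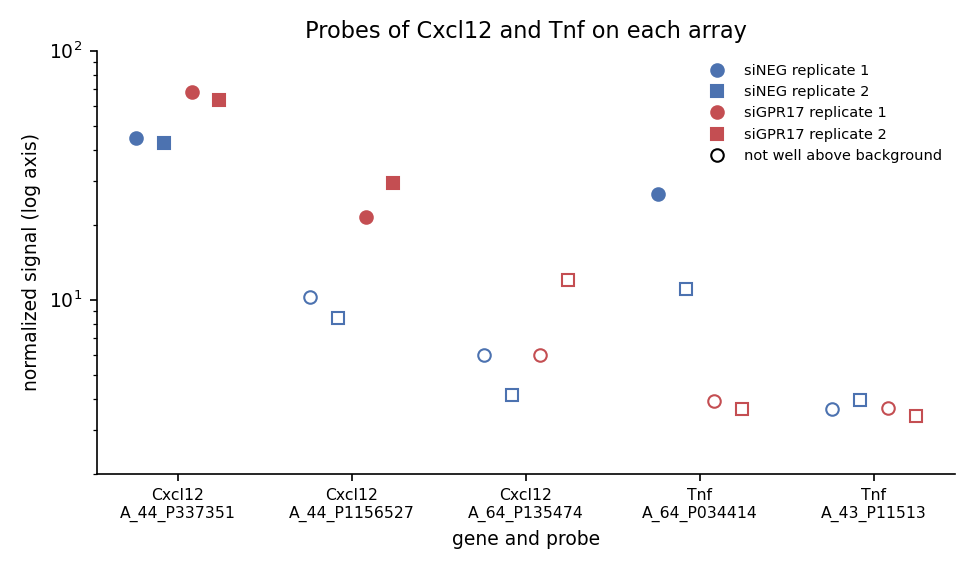
Normalized signal (logarithmic vertical axis) of the 3 Cxcl12 probes and the 2 Tnf probes on each array, with siNEG in blue, siGPR17 in red, circles for replicate 1, squares for replicate 2 and open symbols where the probe was not well above background. The 2 tested Cxcl12 probes are higher on both siGPR17 arrays (68.1 and 63.5, and 21.5 and 29.5), and the brighter Tnf probe is well above background on a single siNEG array, at 26.6.

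The other 4 genes were at the low end of the scale on every array. Ccl3 and Ccl4, the macrophage inflammatory proteins, had signals between 3.26 and 5.21 and between 3.56 and 4.19, respectively. Il1b, the secreted interleukin-1 made by activated microglia, lay between 3.84 and 4.47, and Il6, the cytokine that signals through Il6st, between 3.30 and 3.59. At this level the image software puts a small positive number in place of a spot without signal, and no order was read from such values. Whether the 4 transcripts differed between groups was not detectable at this signal.

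For none of the 4 tested genes did the groups overlap, with Ccl2, Cxcl1 and Cx3cl1 lower and Cxcl12 higher in siGPR17. That alone was common on these arrays, since 25.3% of the tested genes were lower on both siGPR17 arrays and 28.1% were higher on both. A fold change of 1.5 together with an unadjusted p below 0.05 in limma was met by Ccl2 (lower) and by Cxcl12 (higher), against 1.98% of the tested genes in the lower and 1.68% in the higher direction. Cxcl1 met it too, but its direction was fixed by the filter and is not counted. Ccl2 is counted, although it was well above background on both siNEG arrays and on only 1 siGPR17 array. Its siNEG arrays alone met the filter, and its siGPR17 arrays alone would not have. The filter thus favoured the lower direction for Ccl2 as well, without fixing it. The median log2 fold change of all tested genes was 0.0099. As Ccl2, Cxcl12 and Tnf are also among the genes that the study linked to lipid synthesis from these same arrays, their direction here is no independent evidence.

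**Figure D4:**
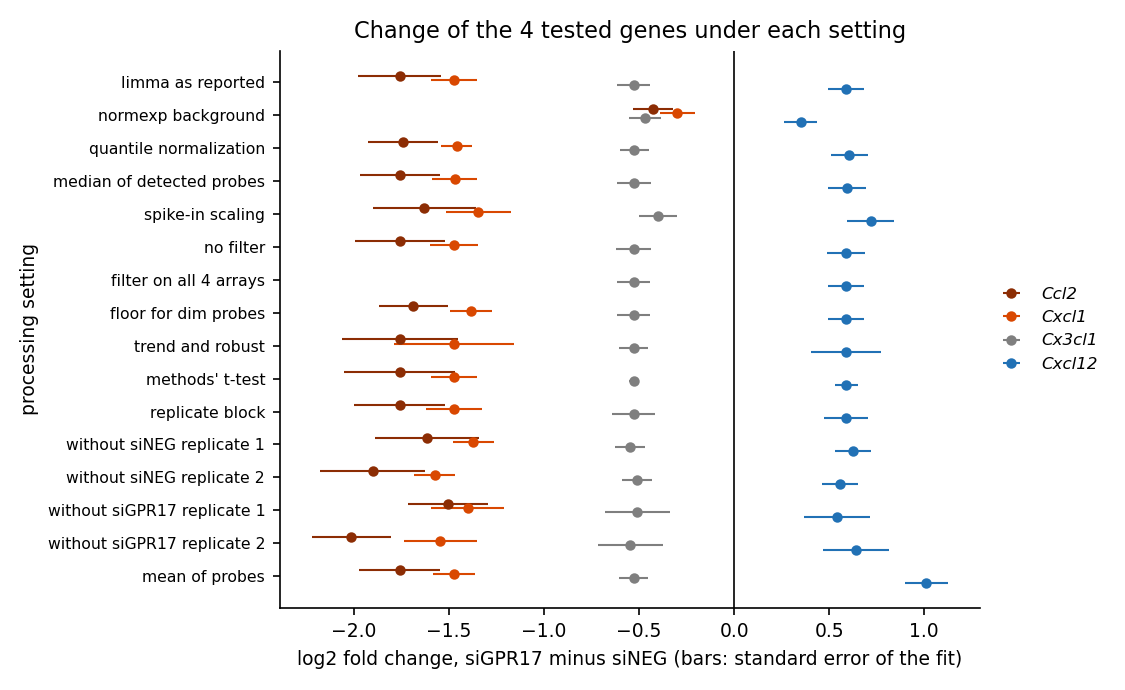
Log2 fold change (siGPR17 minus siNEG) of Ccl2, Cxcl1, Cx3cl1 and Cxcl12 under the reported fit and each alternative setting, with bars for the standard error of the fit. Ccl2 and Cxcl1 are missing where a probe had to be well above background on all 4 arrays, and with normexp they move to -0.43 and -0.30, next to Cx3cl1.

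The genes whose profile over the 4 arrays lay nearest to that of Ccl2, out of 11652 and by Euclidean distance on the log2 scale after scaling, were Cxcl1 (distance 0.39), Or4f52 (0.48), Anxa10 (0.52), Egr4 (0.55) and Cyp2c23 (0.59). Or4f52 encodes an olfactory receptor, Anxa10 an annexin, Egr4 an early growth response transcription factor and Cyp2c23 a cytochrome P450. The first 4 were, as Ccl2 was on 1 array, not well above background in siGPR17, so the likeness is partly one of dim signal. Egr4 had signals of 25.9 and 22.0 in siNEG and of 9.22 and 11.3 in siGPR17. For Cyp2c23, the only one of the 5 measured on all arrays, they were 78.5 and 56.6 in siNEG and 24.1 and 35.8 in siGPR17.

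Many receptors for these ligands were not detected. Of the 16 receptor genes with a probe that are considered, 8 were not well above background on any array: Ccr1, Ccr2, Ccr3, Cxcr1, Cxcr2, Ackr2, Tnfrsf1b and Il1r1. The Ccl2 and Ccl7 receptor Ccr2, the Cxcl1 receptor Cxcr2 and the interleukin-1 receptor Il1r1 thus all fell below what the arrays could show. Il6r and the decoy receptor Il1r2 were each well above background on a single array, the former in siNEG and the latter in siGPR17. Of the 6 tested receptors 3 were higher and 3 were lower (median log2 fold change 0.022), and none had an unadjusted p below 0.05 in limma, against 8.74% of all tested genes in the lower and 7.43% in the higher direction.

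The receptors of Cxcl12 did not differ beyond their spread. Cxcr4 had signals of 63.1 and 65.3 in siNEG and of 62.5 and 84.2 in siGPR17, and Ackr3 had 39.5 and 29.2 in siNEG and 33.6 and 45.3 in siGPR17. In both the groups overlapped. The fractalkine receptor Cx3cr1 was bright but uneven, with 2512 and 1241 in siNEG against 1338 and 1884 in siGPR17. The replicates of this gene were further apart than the group means (log2 fold change -0.15, SE 0.40). The receptor subunits that pass on cytokine signals were well above background on all arrays. Tnfrsf1a, the main receptor of Tnf, had 1571 and 1618 in siNEG and 1502 and 1408 in siGPR17. Il6st, the shared signalling chain gp130, had 4248 and 5060 in siNEG and 3714 and 3887 in siGPR17 (log2 fold change -0.29, SE 0.12), and Il1rap, the accessory chain of the interleukin-1 receptor, 845.0 and 714.3 in siNEG and 918.7 and 987.6 in siGPR17 (0.29, SE 0.12). For each of these 3 the groups did not overlap, and each difference was under 1.5-fold. Such separation was common, with 25.3% of all tested genes lower and 28.1% higher on both siGPR17 arrays.

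Among the other chemokines, the larger differences were toward lower signal after silencing. Of 27 with a probe, 13 were not detected on any array and 11 were tested, 7 of them lower and 4 higher in siGPR17 (6 and 5 with spike-in scaling, median log2 fold change -0.22, and -0.095 with that scaling, 0 past the thresholds). An unadjusted p below 0.05 in limma was reached by 5, all lower (8.74% of all tested genes were lower by this measure): Cxcl10, Cxcl2, Ccl1, Cxcl14 and Cxcl16, of which all but Cxcl10 are named here after their values were seen. Cxcl10 was tested only through the siNEG arrays, so its direction was fixed by the filter. With dim arrays treated as for Cxcl1, Cxcl10, a target of interferon, was 1.74-fold lower, which is no strict lower bound. Its signals were 24.2 and 22.3 in siNEG and 10.8 and 13.3 in siGPR17, where it was not well above background. Cxcl2, the closest relative of Cxcl1 and a ligand of the same receptor, had signals of 71.8 and 62.0 in siNEG and of 35.7 and 49.5 in siGPR17 (log2 fold change -0.67, SE 0.20, limma with Benjamini-Hochberg adjusted p = 0.260). It was well above background on all arrays. Cxcl14, printed 10 times, had 455.3 and 489.8 in siNEG against 332.7 and 323.0 in siGPR17, and its second probe gave the same order. The highest change among the tested chemokines whose groups did not overlap was that of Ccl27 (86.8 and 60.0 in siNEG, 94.6 and 89.5 in siGPR17). On its second tested probe the groups overlapped (69.0 and 58.1 in siNEG, 76.1 and 66.3 in siGPR17).

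The other cytokines showed no common direction. Of 44 with a probe, 22 were tested, 10 higher and 12 lower (14 and 8 with spike-in scaling, median log2 fold change -0.0035, and 0.12 with that scaling), and 20 were not detected on any array. Il5 marked the lower end (232.4 and 195.3 in siNEG, 135.3 and 163.5 in siGPR17). Ltb, lymphotoxin β, marked the upper end, 1.71-fold higher (14.4 ± 1.93 in siNEG, SD, n = 2, not well above background, and 25.4 and 23.6 in siGPR17). This fold change includes siNEG signals at background and is no lower bound. Ltb was tested only through the siGPR17 arrays, so its direction was fixed by the filter.

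For the machinery that drives these genes there was no common direction. Of 23 tested genes of NF-kB and Toll-like receptor signalling 14 were higher and 9 lower (19 and 4 with spike-in scaling, median log2 fold change 0.078), and 3 of the higher and 1 of the lower had an unadjusted p below 0.05, against 7.43% and 8.74% of all tested genes. The lower one was Tlr6, a receptor for bacterial lipopeptides that works together with Tlr2. It had signals of 125.6 and 97.5 in siNEG and of 52.3 and 65.6 in siGPR17 (log2 fold change -0.92, SE 0.19, limma with Benjamini-Hochberg adjusted p = 0.213). It was the only gene of the related lists that passed the thresholds with the trend and robust options. Irak4, the kinase downstream of Myd88, was at the other end (35.6 and 32.3 in siNEG, 58.5 and 42.9 in siGPR17).

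Of the 9 tested genes of cytokine release and mRNA decay 4 were higher and 5 lower (median -0.15, and -0.021 with spike-in scaling). The sheddases of Cx3cl1 differed in direction. Adam17, which also sheds Tnf, had 389.9 and 412.4 in siNEG and 524.7 and 509.6 in siGPR17, a log2 fold change of 0.37 (SE 0.090), whereas Adam10, named here after its values were seen, had 362.5 and 346.2 in siNEG and 274.2 and 291.6 in siGPR17, a log2 fold change of -0.33 (SE 0.092). Zfp36l1, which binds AU-rich elements and speeds the decay of cytokine mRNAs, had 1790 and 1838 in siNEG and 1315 and 1281 in siGPR17, a log2 fold change of -0.48 (SE 0.086). In each of these 3 genes the groups did not overlap, and the difference was under 1.5-fold. Of all tested genes, 25.3% were lower and 28.1% were higher on both siGPR17 arrays.

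Inducible inflammatory genes, many of them NF-kB targets, were lower in 10 of 14 tested cases (8 of 14 with spike-in scaling, median -0.15, and -0.025 with that scaling). Of these, 4 of the lower and 1 of the higher had an unadjusted p below 0.05, against 8.74% and 7.43% of all tested genes. Icam1, the adhesion molecule for leukocytes, had 92.2 and 66.5 in siNEG against 48.7 and 43.5 in siGPR17 (log2 fold change -0.77, SE 0.19, limma with Benjamini-Hochberg adjusted p = 0.232). Ptx3, a long pentraxin, went the other way, with 20.1 and 14.5 in siNEG and 27.1 and 30.5 in siGPR17. None of the cytokine, signalling, release or inducible genes passed the thresholds in the reported fit.

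**Figure D5:**
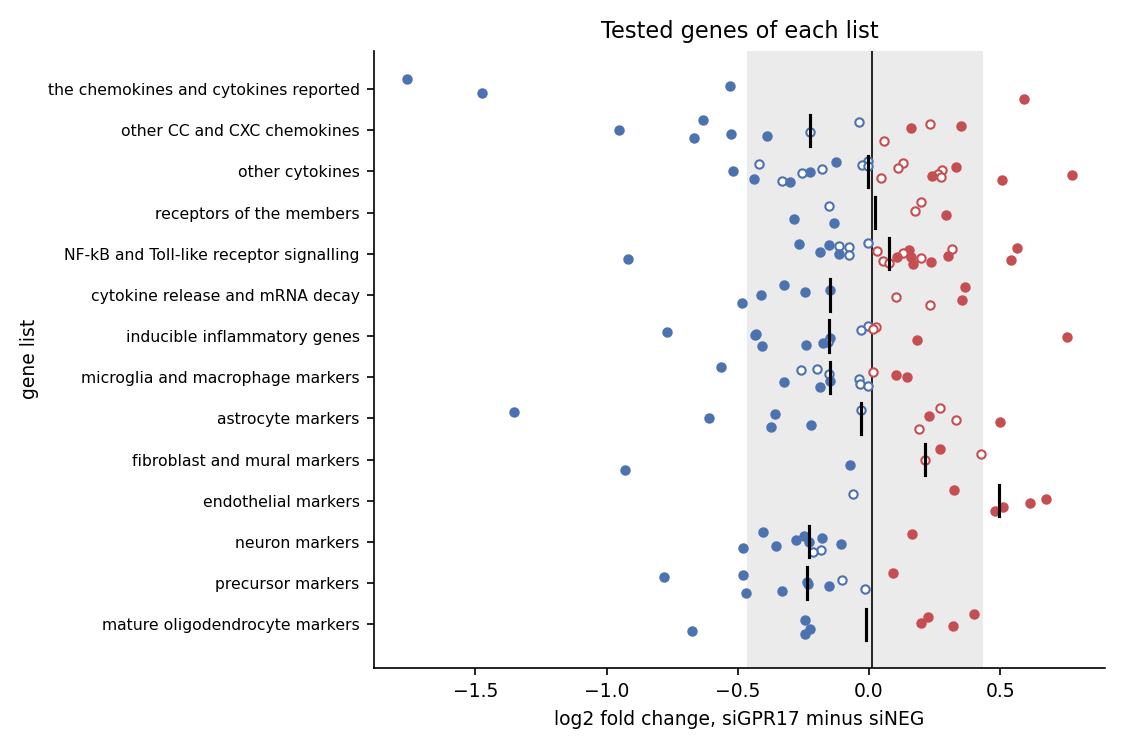
Log2 fold change (siGPR17 minus siNEG) of every tested gene in each list, with red for higher and blue for lower in siGPR17, open circles where the groups overlap and a black bar at the median of each list except the topmost. The grey band spans the 5th to 95th percentile of all tested genes (-0.46 to 0.43) and the thin line their median, 0.0099, and Ccl2, Cxcl1, Cx3cl1 and Cxcl12 all lie outside the band.

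The arrays measured mixed RNA of a whole culture, in which fewer cells of a type and less RNA per cell cannot be told apart, so markers of cells known to make these ligands were set beside them. The lineage marker Olig2 (57913 to 79884) and the myelin gene Mbp (197178 to 272873) were bright in all samples, while of the mature oligodendrocyte markers Mog lay between 227.9 and 413.2 and Mal and Ermn were not detected on any array. Of the 10 tested precursor markers, Gpr17 among them, 9 were lower and 1 was higher in siGPR17 (7 and 3 with spike-in scaling, median log2 fold change -0.23), and of the 8 tested mature markers 4 were lower and 4 higher (median -0.013). Of 21 microglia and macrophage markers 7 were not detected on any array, Csf1r, Ptprc and C1qc among them, and 11 were well above background on all 4, among them C1qb (142.9 and 91.9 in siNEG, 99.2 and 92.4 in siGPR17) and P2ry12 (382.6 and 353.4 in siNEG, 306.9 and 281.9 in siGPR17). Their summed signal was 9374 and 8590 in siNEG and 9073 and 9110 in siGPR17, which overlap. Of the 13 tested 10 were lower and 3 higher in siGPR17 (7 and 6 with spike-in scaling, median log2 fold change -0.15, and -0.019 with that scaling), among them Aif1 with 46.1 and 43.5 in siNEG and 33.0 and 27.8 in siGPR17. Of the 11 tested astrocyte markers 6 were lower and 5 higher (5 and 6 with spike-in scaling, median -0.030, and 0.098 with that scaling). Their summed signal without Aldoc, which made up most of it, was 11887 and 12718 in siNEG and 11534 and 11618 in siGPR17. Aqp4 (160.9 and 168.8 in siNEG, 72.9 and 57.1 in siGPR17) and Gfap (295.4 and 261.4 in siNEG, 167.7 and 198.1 in siGPR17) were lower on both siGPR17 arrays, as Ccl2, Cxcl1 and Cx3cl1 were, whereas S100b (2256 and 2524 in siNEG, 3338 and 3415 in siGPR17) was higher on both. Markers of neurons, a known source of Cx3cl1, were lower in 10 of 11 tested cases (9 of 11 with spike-in scaling). Their median log2 fold change was -0.23, and -0.10 with that scaling. Their summed signal was 19926 and 21047 in siNEG and 18128 and 17406 in siGPR17. Markers of endothelial cells, a known source of Cxcl12, were higher in 5 of 6 tested cases (6 of 6 with spike-in scaling, median 0.49). Their summed signal was 1338 and 1231 in siNEG and 1869 and 1746 in siGPR17. Most of it was Vwf (869.3 and 738.2 in siNEG, 1165 and 1071 in siGPR17). Of the 12 endothelial markers 5 were not detected on any array (Pecam1, Cldn5, Tie1, Emcn and Eng). The brightest probe of Flt1 was well above background on a single siNEG array. Fibroblast and mural markers had 5 tested genes, 3 higher and 2 lower (4 and 1 with spike-in scaling), with a summed signal of 923.4 and 826.7 in siNEG and 898.4 and 903.0 in siGPR17, and Pdgfrb, Dcn and Lum were not detected. The part of these markers in the differences of the chemokines was not tested.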

How the data were processed

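RNA from 4 samples of cultured rat OPCs (2 siNEG, 2 siGPR17, grouped and numbered by their labels) was hybridised with Cy3 on one-colour arrays. The authors deposited one table of spot intensities per array, made with Agilent Feature Extraction 10.7.3.1, per the file headers. The processed intensity is corrected for background by that software, low spots receive a small positive surrogate, and arrays are not scaled to each other. Here, log2 of the deposited processed intensity was taken, control and outlier-flagged spots were left out, spots of a probe were averaged, and each array's 75th percentile was subtracted. Linear values are these multiplied by 1 common factor. Probes were named through RefSeq accessions (table of GRCr8, names only), which gave 21086 of 45565 probes a symbol. Of these 45565 probes, 28016 were well above background (at least 50% of their spots) on at least 2 of the 4 arrays and were fitted with limma 3.58.1 in R 4.3.3 (lmFit, eBayes, Benjamini-Hochberg adjustment, two-sided, no block). The fold change of 1.5 and adjusted p of 0.07 are the study's thresholds. Its methods name no array test. Their general unpaired t-test was tried as an alternative. A gene is represented by its brightest tested probe. The script was tested on simulated data. The genes and lists were chosen with earlier results of these data known, so no count over them is independent evidence. The genes named are the 10 chemokines and cytokines, Gpr17, their receptors, the extremes of each related list and the 5 nearest to Ccl2, while markers and others outside this rule were named after their values were seen. Replicate numbers did not pair the samples (the differences between replicates 1 and 2 correlated at r = -0.065 between groups). Signal over background limits the precision of dim probes, and the number of arrays that of all. The result of 1 receptor is not reported here.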

Additional observations from a re-analysis of the deposited data

How the results depend on the processing

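Across 15 alternatives, which concerned background, scaling, filter, spread model, test, pairing, probe choice and each array left out, Ccl2, Cxcl1, Cx3cl1, Cxcl12 and Gpr17 kept their direction wherever they could be fitted. For Cxcl1 the filter had fixed that direction, and for Ccl2 it favoured it, so their calls and directions here are no further evidence. Without single arrays the log2 fold change ranged from -2.01 to -1.51 for Ccl2, from -1.57 to -1.37 for Cxcl1, from -0.55 to -0.51 for Cx3cl1, from 0.54 to 0.64 for Cxcl12 and from -0.80 to -0.77 for Gpr17. Calls depended on background and spread model. The reported fit called 0 of 11652 genes (1884 had an unadjusted p below 0.05 in limma), normexp called 112 and the trend and robust options called 184, and the methods' t-test and all other alternatives called 0. Among the 10 genes the trend and robust options called 2 (Ccl2 and Cxcl1), and among the related lists 1 (Tlr6). Gpr17 passed with normexp (log2 fold change -0.66, adjusted p = 0.022) and with the trend and robust options (-0.78, adjusted p = 0.0152). The cause was not tested, except that the normexp offset of 50 shrinks the ratios of dim probes by construction. With the replicate number as a block (replicate block), which pairs the samples by number, the count stayed at 0 and Gpr17 at -0.78 (limma adjusted p = 0.390). Adjusted p-values over all alternatives spanned 0.0397 to 0.665 for Ccl2, 0.0645 to 0.665 for Cxcl1, 0.0297 to 0.672 for Cx3cl1 and 0.0889 to 0.665 for Cxcl12. A filter on all 4 arrays left out Ccl2 and Cxcl1. For Ccl3, Ccl4, Il1b, Il6, Ccl7 and Tnf the signal over background was too low for a test.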
